A study of Saccharomyces cerevisiae with 8 samples.

Results

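The comparison described here set the transcripts of a pif1 mutant of budding yeast directly against those of its wild type, with both cultures labelled as grown in zinc chloride. Its members were chosen by sample title and by presence of a value: 4657 of the 6212 yeast IDs of the deposited table had a value on both of its arrays. Replicate 1 held 4677 values and replicate 2 held 5119, so 20 IDs were measured on replicate 1 only, 462 on replicate 2 only and 1073 on neither.

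The wild type was strain BY4741 and the mutant was a pif1::KanMX derivative of it, in which a drug resistance cassette disrupts PIF1. Both strains were grown in rich YPD medium at 28 °C to an A660 of 0.6, and the RNAs labelled with zinc came from cells given ZnCl2 at 5 mM for 1 h before harvest. The study, whose title concerns zinc tolerance in the absence of this helicase, used 8 spotted 2-colour arrays in 4 comparisons of 2 arrays: zinc in the wild type, zinc in pif1, pif1 over wild type without zinc and pif1 over wild type with zinc. Within each comparison the dyes were exchanged, and on the arrays described here the mutant RNA carried Cy3 on replicate 1 and Cy5 on replicate 2. Neither the use of 1 mutant clone or several nor the use of separate cultures for replicates 1 and 2 is given, so p-values measure only the spread between these arrays, which may be technical. All values below are log2 ratios of pif1 over wild type, centred on each array's median, unless another comparison is named.

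PIF1 encodes a helicase, active in nuclei and mitochondria, that unwinds structured DNA, removes telomerase from chromosome ends and helps to maintain mitochondrial DNA. Zinc is an essential metal that competes with iron for binding sites when in excess. Yeast cells adjust zinc uptake through the transcription factor Zap1 and iron uptake through Aft1 and Aft2, whose targets include the cell wall mannoproteins FIT1 to FIT3 and the siderophore transporters. When mitochondrial function falters, the RTG proteins raise transcripts for the first enzymes of the TCA cycle, which supply glutamate.

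PIF1 (YML061C) was measured on replicate 2 at −3.69, while replicate 1 held a placeholder value that was set to missing. On replicate 2 of the comparison labelled without zinc it lay at −4.88. The RNA labelled pif1 was therefore low in PIF1 on both arrays that measured it, and each of these is 1 array with no test. The 5 tested genes specific to a-cells, the mating type of BY4741, lay between −0.16 and 0.11, and 0 of them passed the test by limma, also at an unadjusted p under 0.05. Ratios show no level, so whether such markers were expressed cannot be read from them. Of the genes that BY4741 lacks, HIS3 was tested (−0.16), while LEU2, URA3 and MET17 lacked a value on at least 1 array.

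The zinc labels could be set against the other 6 arrays, because the 4 comparisons form a loop: the direct ratio should equal the ratio without zinc plus the zinc response of pif1 minus that of the wild type. With the labels as given, 19 of 3857 genes with a value on all 8 arrays departed from this sum (0.493%, limma adjusted p under 0.05). Among them HSP26, a small heat shock protein, lay at 2.07 in the direct comparison and at −4.11 by the sum. GPX2, a glutathione peroxidase, lay at −2.56 directly and at 2.79 by the sum. The siderophore genes had the same pattern as HSP26, with FIT1 at 1.495 against −2.31, FIT3 at 1.56 against −2.56, FIT2 at 0.88 against −1.56 and ARN2 at 1.20 against −2.29. LEU1, an iron-sulfur enzyme of leucine synthesis, lay at −0.25 against 2.96, and ROX1, a repressor of hypoxic genes, at −1.40 against 1.28. GSC2, a subunit of glucan synthase, lay at 1.23 directly and below 0 by the sum. Each of these genes thus had opposite signs by the direct and the summed route, and LEU1 was close to 0 by the direct one. Among the 19, RKR1 (−0.15 against −3.14), NOP12, YHL049C and ERO1 had the same sign by both routes.

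When the labels with and without zinc of both mutant comparisons were exchanged, 0 of 3857 genes departed from the sum by limma, with 230 at an unadjusted p under 0.05 against 337 with the labels as given. The SD of the departure across genes was 0.389 after the exchange and 0.496 before it. HSP26 then stood at −0.78 directly and −1.25 by the sum, GPX2 at 0.05 and 0.18, and LEU1 at 1.59 and 1.13. Exchanging the strain labels of both zinc comparisons instead gives departures of the same size with the opposite sign, so the loop alone does not tell these apart. The values differ: HSP26 would then keep its direct value of 2.07 against a sum of 2.54, and GPX2 −2.56 against −2.69, with the mutant arrays as labelled. With the replicate number as a block, 67 genes departed with the labels as given and 1 gene (RKR1) after either exchange. RKR1 (YMR247C) lies within the IDs YMR176W to YMR250W, and zinc gave it 2.82 and 3.20 in the wild type but −0.23 and 0.15 in pif1. Without these IDs, an alternative chosen after seeing the data, 16 of 3818 genes departed with the labels as given.

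**Figure D1:**
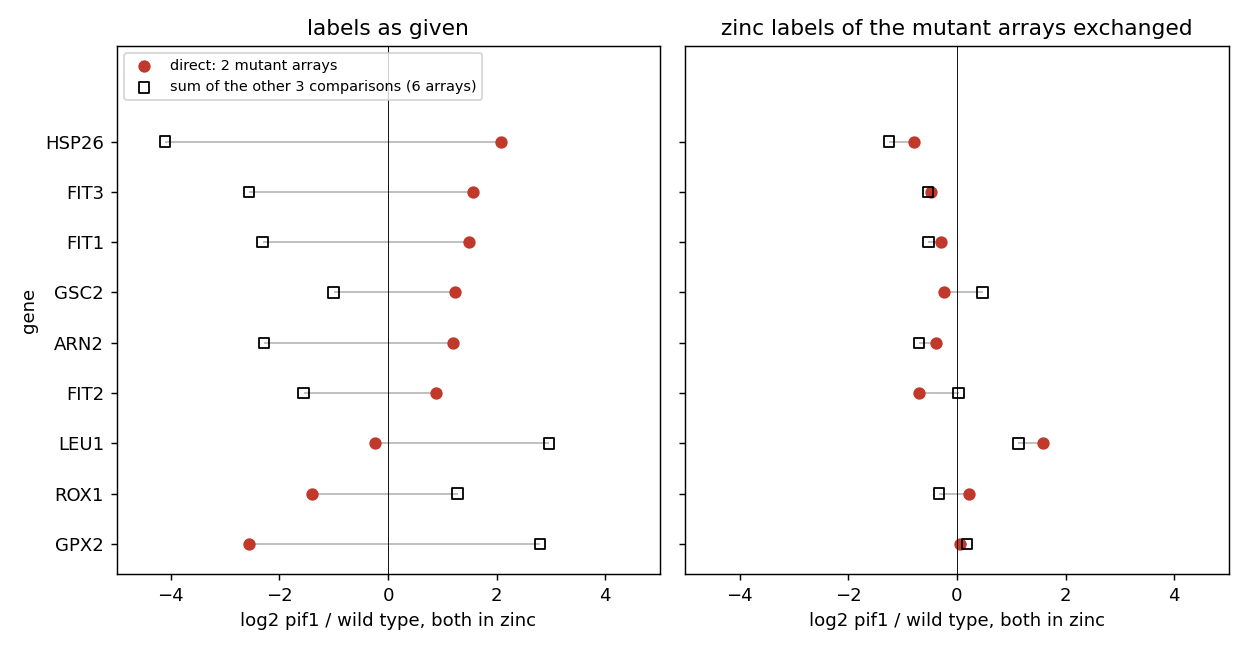
Mean log2 ratio of pif1 over wild type in zinc for 9 genes (rows), from the 2 direct arrays (filled circles) and from the sum of the other 3 comparisons (open squares), with the labels as given on the left and with the zinc labels of the mutant arrays exchanged on the right. On the left both marks lie far apart for every gene, as for HSP26 at 2.07 and −4.11, and on the right they lie closer together, as for HSP26 at −0.78 and −1.25. The 9 are the named genes among the 19 departures with the labels as given. The wide gaps on the left follow from that choice, so the panels are no separate test of the labels. RKR1, which is not drawn, came no closer, at −0.15 and −3.14 as given and −0.10 and −3.20 exchanged.

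The presence of values gave a further measurement. Of 41 IDs that zinc raised at least 4-fold in the wild type and at least 2-fold in pif1, 100% had a value on each array labelled without zinc, against 70.7% and 90.2% on replicates 1 and 2 labelled with zinc. For 87 IDs lowered at least 2-fold in both strains, the shares were 94.3% and 97.7% without zinc against 96.6% and 97.7% with it. For 2306 IDs within 0.5 of 0 in both strains they were 96.8% and 98.2% without zinc against 96.5% and 98.5% with it. The 41 IDs that zinc raised were thus absent more often from the arrays labelled with zinc, while dim spots had been removed before deposit. Shares of the lowered IDs, chosen at another cut-off, differed little between the labels. The results are therefore given for the arrays as labelled, with values of the arrays labelled without zinc beside many of them.

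On the arrays labelled with zinc, 55 of 4657 genes (1.18%) passed the test (limma, Benjamini-Hochberg adjusted p under 0.05), 46 of them higher in pif1 (0.988%) and 9 lower (0.193%). All 55 had the same sign on both arrays, and the smallest mean among them was 0.66 in size. At an unadjusted p under 0.05 there were 457 genes. Because the RNA came from whole cultures, fewer cells of a kind and less RNA per cell cannot be told apart. With the replicate number as a block, which the array deviations bear out, 115 of 4578 genes passed, 90 higher and 25 lower, and these included 53 of the 55. The other 2, HUG1 and TIR4, could not be tested in that fit, which needs values on further arrays. In the main fit the own spread of HUG1 and TIR4 came from the 2 arrays described here alone, before moderation across genes. Because the block adds calls, a gene given below as not passing is marked where it passed with the block. Quantile normalization gave 224 higher and 93 lower genes, or 70.7% higher against 83.6%. With replicate 1 left out 1 gene passed (GPX2), and with replicate 2 left out 3 passed (GPX2, HSP26 and PUT1), so the number of calls rests on having both arrays.

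Most genes had ratios near 0: the middle 50% of means lay between −0.12 and 0.12, and 95% were below 0.45. The values of both arrays correlated at r = 0.439 across genes, which are not independent replicates, and their within-pair SD was 0.225. Genes at least 2-fold higher on each array numbered 19 (0.408%), and those at least 2-fold lower on each numbered 7 (0.15%). Arrays that differed by more than 2 units gave opposite signs for RTS2, at 1.95 and −2.09, and for YKL202W, at −1.02 and 1.07. RTS2 had the same split on the arrays labelled without zinc (1.23 and −2.69).

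**Figure D2:**
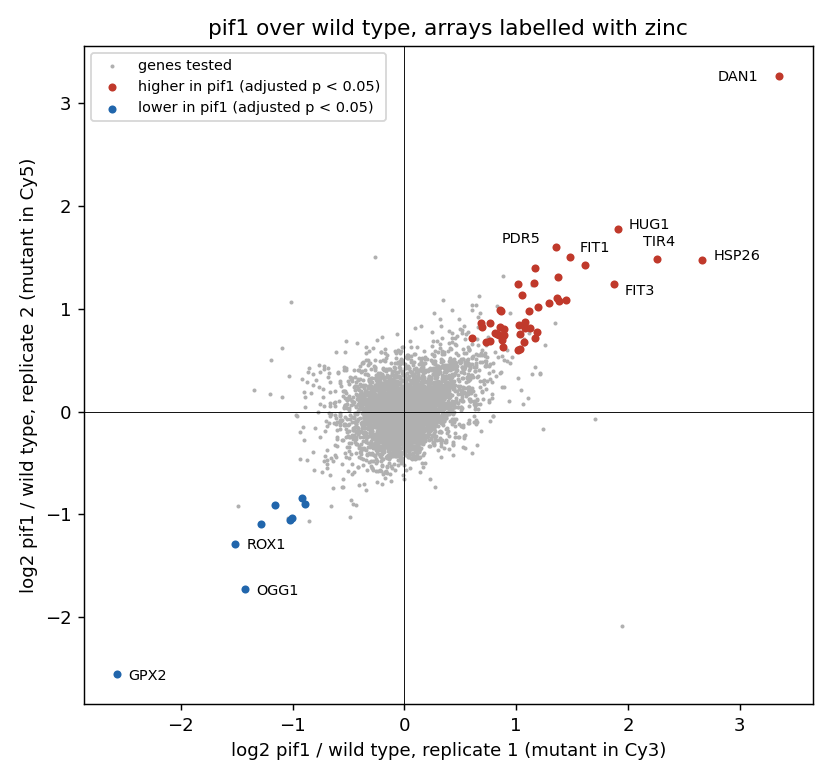
Log2 ratio of pif1 over wild type for each of 4657 genes on replicate 1 (horizontal axis, mutant in Cy3) and replicate 2 (vertical axis, mutant in Cy5), with the 46 higher and 9 lower genes past the threshold in colour. The coloured genes lie in the upper right and lower left corners, from DAN1 at 3.36 and 3.27 to GPX2 at −2.57 and −2.56.

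The genes around PIF1 and those for DNA repair and nucleotide supply came first. OGG1 (YML060W), the neighbour of PIF1, encodes a DNA glycosylase that removes oxidised guanine. It lay at −1.42 and −1.73, with a mean of −1.58 ± 0.21 (SD, n = 2, 2.98-fold lower, limma adjusted p = 0.00687), and was also low on the arrays labelled without zinc (−1.34 and −1.03). HUG1 (YML058W-A), a small protein induced by DNA damage that restrains ribonucleotide reductase, is the third annotated gene on the same side and went the other way. It lay at 1.91 and 1.78, a mean of 1.84 ± 0.093 (n = 2, 3.59-fold higher, limma adjusted p = 0.00913), and at 1.32 on the one array labelled without zinc that measured it.

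The 6 other measured neighbours within 5 genes on either side did not pass. ORC1 (−0.08), RPS1B (−0.14) and MFT1 (−0.18) lie on one side, and NTE1 (0.01), SML1 (−0.14) and CMP2 (−0.11) on the side of OGG1. SML1 encodes the standing inhibitor of ribonucleotide reductase, and ORC1 a subunit of the origin recognition complex.

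RNR3, the damage-inducible large subunit of ribonucleotide reductase, was higher in pif1 on both arrays (1.05 and 1.14, mean 1.09 ± 0.062, n = 2, limma adjusted p = 0.0242). The arrays labelled without zinc gave 1.14 and 0.52. The small subunits RNR2 (0.47 ± 0.18) and RNR4 (0.45 ± 0.16) and the main large subunit RNR1 (0.18 ± 0.14) did not pass. Of 24 tested genes of DNA damage and nucleotide reduction, 2 were higher and 0 lower, against 46 and 9 of 4657 genes. Their median was 0.13, against −0.01 over all genes tested. Of 16 tested telomere and helicase genes 0 passed by limma (2 at an unadjusted p under 0.05), and they ranged from YKU70 at −0.57 to CDC13 at 0.59.

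Of 6 tested genes of siderophore uptake, 3 were higher in pif1 on these arrays and 0 lower, against 46 and 9 of 4657 genes. FIT3, a cell wall mannoprotein that retains siderophore-bound iron, lay at 1.87 and 1.24, a mean of 1.56 ± 0.44 (n = 2, 2.94-fold, limma adjusted p = 0.0342). Its relative FIT1 lay at 1.485 and 1.505 on replicates 1 and 2 (mean 1.495 ± 0.014, 2.82-fold, adjusted p = 0.00507). ARN2, a transporter of the siderophore triacetylfusarinine, lay at 1.16 and 1.25 (mean 1.20 ± 0.062, 2.30-fold, adjusted p = 0.00647). FIT2 (1.01 and 0.75, adjusted p = 0.105) and ARN1 (0.66 and 0.93, adjusted p = 0.0519) did not pass, but did with the replicate block (adjusted p = 0.0186 and 0.0228), which makes 5 of the 6 higher. SIT1 (0.21 and 0.29) passed in neither fit. All 6 tested genes of the list were above 0 on both arrays, where 27.6% of all tested genes were. Their median was 1.04, and −0.335 without zinc. ENB1 and FRE3 lacked a value on at least 1 array.

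On the arrays labelled without zinc FIT3 gave −0.22 and −0.72, FIT1 −0.17 and −0.40, and ARN2 −0.52 and −0.24, and none of them passed there. The 3 called siderophore genes were thus above 0 on each array labelled with zinc and below 0 on each array labelled without it, while the mean of ARN1 was above 0 there too (0.36). The zinc arrays bear on these genes too: zinc raised FIT1 by 2.32 in the wild type and gave 0.29 in pif1, and the values for ARN2 were 1.97 and 0.07. FIT3 was raised in both strains, by 3.155 in the wild type and 1.07 in pif1 (limma adjusted p = 0.0184 in pif1). For FIT2, which was not called here, the values were 2.19 and 1.34 (limma adjusted p = 0.00168 in pif1).

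The wider iron regulon had 30 tested members, of which 3 were higher (the siderophore genes above) and 0 lower, against 46 and 9 of 4657 genes. Its median was 0.22 (−0.07 without zinc). With the replicate block 7 of 29 were higher and 1 lower, against 90 higher and 25 lower of 4578 genes. FRE5, a putative ferric reductase, lay at 0.87 and 1.00 (mean 0.93 ± 0.090, adjusted p = 0.0585) and passed with the block (0.0319). Reductive iron uptake had 0 calls by limma among 10 tested genes (1 at an unadjusted p under 0.05), and its median was 0.05. The multicopper oxidase FET3 lay at −0.26 and its partner permease FTR1 at −0.09, while CCC2, which supplies copper to FET3, lay at 0.53. MRS4, a mitochondrial iron carrier, was the lowest of the regulon at −0.58 ± 0.16 (adjusted p = 0.0968, and 0.0387 with the block).

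Zinc transport genes did not differ beyond the threshold. The 13 tested genes lay between −0.26 (IZH2) and 0.44 (FET4), with a median of 0.17, and 0 passed by limma in either direction (1 at an unadjusted p under 0.05). FET4, a low-affinity transporter of iron and zinc, lay at 0.30 and 0.58, and the regulator ZAP1 at 0.05 and 0.69, so for ZAP1 the arrays were far apart. The plasma membrane zinc transporters ZRT1 (−0.14) and ZRT2 (−0.12), the vacuolar transporter COT1 (0.06) and IZH3 (0.28), a membrane protein tied to zinc homeostasis, lay within 0.5 of 0. Of 26 tested genes of the Zap1 regulon 0 passed by limma (2 at an unadjusted p under 0.05), and their median was −0.05. A gene that misses the threshold with 2 arrays may still differ.

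Hypoxic genes held the highest ratio of the comparison. DAN1 (YJR150C), a cell wall mannoprotein made under anaerobic conditions, lay at 3.36 and 3.27 (mean 3.31 ± 0.062, n = 2, 9.93-fold higher, limma adjusted p = 0.00647). It had no value on the arrays labelled without zinc or on those of zinc in the wild type. Its own spread in the fit therefore came from these 2 arrays and those of zinc in pif1 (−0.15 and −1.39). TIR4, a mannoprotein of the same setting, lay at 2.26 and 1.49 (mean 1.87 ± 0.55, 3.66-fold, adjusted p = 0.0264), with 0.57 on the one array without zinc that measured it. AAC3, the ADP/ATP carrier used in low oxygen, lay at 0.69 and 0.86 (mean 0.77 ± 0.12, adjusted p = 0.0386), a call that ended with a dye term in the fit (0.0576).

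ROX1, which represses hypoxic genes when heme is present, was lower in pif1. It lay at −1.51 and −1.28 (mean −1.40 ± 0.16, n = 2, 2.63-fold lower, limma adjusted p = 0.00507), against 0.39 and 0.05 on the arrays labelled without zinc. Of the 15 tested genes of the hypoxic list, 3 were higher and 1 (ROX1) lower, against 46 and 9 of 4657 genes. The list median was 0.57. Without zinc the median was 0.05 over the 12 that had a mean there. TIR1 (1.10 ± 0.34, adjusted p = 0.105) passed with the replicate block (0.00845). TIR3 (0.79 ± 0.045), TIR2 (0.63 ± 0.22), the heme enzyme HEM13 (0.60 ± 0.19) and the cytochrome oxidase subunit COX5B (0.57 ± 0.062) passed in neither fit. In all, 10 of the 15 (66.7%) were above 0 on both arrays, against 27.6% of all genes tested.

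Transcripts for aconitase and isocitrate dehydrogenase, early enzymes of the TCA cycle, were higher in pif1, and no other tested gene of the cycle passed. IDH1 and IDH2 encode both subunits of NAD-dependent isocitrate dehydrogenase, and ACO1 encodes the main aconitase, an iron-sulfur enzyme. IDH1 lay at 1.29 and 1.05 (mean 1.17 ± 0.17, n = 2, limma adjusted p = 0.0111), IDH2 at 1.20 and 1.01 (1.11 ± 0.13, adjusted p = 0.0242) and ACO1 at 1.02 and 1.25 (1.13 ± 0.16, adjusted p = 0.00858). On the arrays labelled without zinc they were high too, at 1.22 and 1.32 for IDH1, 1.59 and 1.29 for IDH2, and 1.53 and 1.81 for ACO1. YOR135C, whose ID is next to that of IDH2 (YOR136W), lay at 1.17 and 1.40 (mean 1.28 ± 0.16, adjusted p = 0.0242). Spots of neighbouring IDs on opposite strands cannot be told apart where the genes overlap and the probe strand is not stated.

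The TCA list had 18 tested members, of which 3 were higher and 0 lower, against 46 and 9 of 4657 genes. Its median of −0.06 lay near that of all genes. Without zinc 4 of the 18 were higher (median 0.12). The pyruvate carboxylase PYC1 (0.37), the citrate synthase CIT1 (−0.02) and the oxoglutarate dehydrogenase subunit KGD1 (−0.20) did not pass. RTG3, a transcription factor of the retrograde response, lay at 0.88 and 0.74 (mean 0.81 ± 0.10, adjusted p = 0.0419), and at 1.06 and 0.84 without zinc. With IDH1, IDH2 and ACO1 it made 4 higher genes among 14 tested of the retrograde list (median 0.18), against 46 of 4657 genes. Without zinc 4 of the 14 were higher too (median 0.25). IDH1, IDH2 and ACO1 belong to both this list and the TCA list. CIT2, the peroxisomal citrate synthase used as a marker of that response, lay at 0.31 ± 0.13, and DLD3, a lactate dehydrogenase of the same response, at 0.096 ± 0.0028, and neither passed.

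Among 31 tested genes for iron-sulfur enzymes and their assembly, ACO1 was the one call, and the median was −0.05. The scaffold genes ISU1 (0.51, adjusted p = 0.0472 with the replicate block) and ISU2 (−0.49) lay on opposite sides of 0, and the assembly factor IBA57 lay at 0.49. LEU1 lay at −0.23 and −0.26 (mean −0.25 ± 0.022, adjusted p = 0.677), whereas on the arrays labelled without zinc it was at 1.53 and 1.64 (mean 1.59, 3.01-fold, adjusted p = 0.00125).

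Genes for mitochondrial ribosomal proteins had ratios mostly above 0, with 0 calls by limma and 14 at an unadjusted p under 0.05. Their median was 0.27 over 68 tested genes, against 0.35 over 66 of them on the arrays labelled without zinc. Of the 68, 55 (80.9%) were above 0 on both arrays labelled with zinc, against 27.6% of all genes tested. They ranged from MRPL35 at −0.08 to MRPS5 at 0.82, and MRPS5 (adjusted p = 0.0152) and MRP10 (0.61, adjusted p = 0.0298) passed with the replicate block. Genes of mitochondrial protein import had a median of 0.13 over 26 tested (0.18 without zinc). Of these, 57.7% were above 0 on both arrays, with 0 calls (also at an unadjusted p under 0.05). The 29 tested genes of the respiratory chain lay the other way, with a median of −0.15, whereas without zinc it was 0.07. On both arrays labelled with zinc 58.6% were below 0, against 28.9% of all genes, with 0 calls by limma (5 at an unadjusted p under 0.05). With the block 1 of the 29 passed, CYT1 (−0.67, adjusted p = 0.0154), the cytochrome c1 gene. Of 8 mitochondrially encoded genes 0 could be tested.

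Genes of peroxide defence included the lowest ratio of the comparison. GPX2 (YBR244W), a glutathione peroxidase that reduces lipid hydroperoxides, lay at −2.57 and −2.56 (mean −2.56 ± 0.0085, n = 2, 5.91-fold lower, limma adjusted p = 0.000552). The arrays labelled without zinc gave −0.12 and 0.22. It was the one call among 41 tested oxidative stress genes, whose median was −0.08 (−0.09 without zinc). Of the 41, 51.2% were below 0 on both arrays, against 28.9% of all genes tested. With the replicate number as a block, 5 of the 41 were lower and 0 higher, against 25 lower and 90 higher of 4578 genes. The superoxide dismutase SOD1 (−0.79 ± 0.19), the thioredoxin reductase TRR1 (−0.67 ± 0.27), the thioredoxin TRX2 (−0.55 ± 0.30) and GSH1 (−0.56 ± 0.11), the first enzyme of glutathione synthesis, had adjusted p-values of 0.161, 0.262, 0.311 and 0.204 without the block and 0.0298, 0.0438, 0.0342 and 0.0436 with it. The peroxiredoxin TSA1 (−0.96 ± 0.15, adjusted p = 0.232) passed in neither fit.

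Chaperone genes moved in both directions. HSP26 (YBR072W), a small heat shock protein that holds unfolded proteins, lay at 2.67 and 1.48 (mean 2.07 ± 0.84, n = 2, 4.21-fold higher, limma adjusted p = 0.00913), and both arrays labelled without zinc were below 0 (−0.61 and −0.95). SSA3, a stress-inducible Hsp70, lay at 1.38 and 1.31 (mean 1.34 ± 0.048, adjusted p = 0.0108). HSP31, a chaperone that also detoxifies methylglyoxal, was lower at −1.01 and −1.03 (mean −1.02 ± 0.019, adjusted p = 0.0413), as on the arrays without zinc (−0.90 and −1.32), though its call ended with a dye term (0.0536). The 33 tested chaperone genes had 2 higher and 1 lower call, against 46 and 9 of 4657 genes. Their median was −0.14 (1 higher, 3 lower and a median of −0.31 without zinc). Of the 33, 60.6% were below 0 on both arrays, against 28.9% of all genes tested. BTN2, a factor that sorts misfolded proteins (−1.04 ± 0.0092, adjusted p = 0.111), was lower with the replicate block (0.0228). HSP26 therefore lay apart from the middle of its list.

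The 38 tested proteasome genes had a median of −0.11 (−0.23 without zinc), with 0 calls by limma (1 at an unadjusted p under 0.05). Of the 38, 55.3% were below 0 on both arrays, against 28.9% of all genes tested. Of 34 tested general stress genes 3 were higher, against 46 of 4657 genes. These were HSP26, SSA3 and GPP2. GPP2, a glycerol-3-phosphate phosphatase, lay at 1.12 and 0.98 (mean 1.05 ± 0.098, adjusted p = 0.0242). With the block 6 of the 34 were higher, against 90 of 4578 genes. The 107 tested ribosome biogenesis genes had 0 calls by limma (3 at an unadjusted p under 0.05) and a median of 0.07 (−0.03 without zinc). Of the 107, 43% were above 0 on both arrays, against 27.6% of all genes tested.

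**Figure D3:**
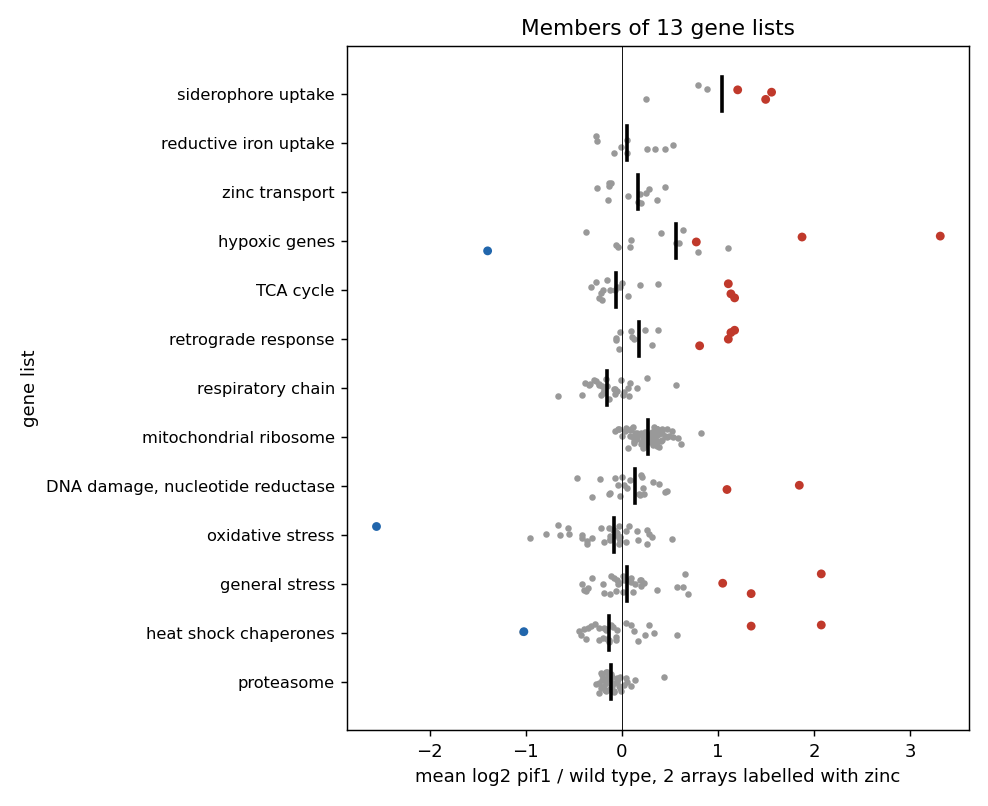
Mean log2 ratio of pif1 over wild type on the 2 arrays labelled with zinc for the tested members of 13 gene lists, with 1 point per gene, called genes in red (higher) or blue (lower), and the median of each list as a vertical bar. Siderophore uptake (median 1.04) and hypoxic genes (median 0.57) lie to the right, and mitochondrial ribosomal proteins (median 0.27) to the right of 0 with no call.

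Other called genes belonged to transport and the cell surface. PDR5, a plasma membrane exporter of drugs, lay at 1.36 and 1.60 (mean 1.48 ± 0.17, n = 2, limma adjusted p = 0.00507), and at 0.67 and 0.99 without zinc. GSC2 lay at 1.38 and 1.07 (mean 1.23 ± 0.22, adjusted p = 0.00913), and at −0.37 and −0.11 without zinc. It was the one call among 37 tested cell wall integrity genes, and SPI1 (0.64, adjusted p = 0.036) joined it with the replicate block. TPO4, an exporter of polyamines, lay at −1.29 and −1.10 (mean −1.19 ± 0.13, adjusted p = 0.0108), and MUP3, a low-affinity methionine permease, at −1.02 and −1.06 (mean −1.04 ± 0.023, adjusted p = 0.0191). Both were also below 0 on the arrays labelled without zinc, at −0.69 and −0.71 for TPO4 and −0.97 and −0.91 for MUP3.

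Of the metabolic genes, VID24, which targets gluconeogenic enzymes for degradation, lay at 1.45 and 1.09 (mean 1.27 ± 0.25, adjusted p = 0.0242). GDH3, an NADP-dependent glutamate dehydrogenase, lay at 0.83 and 0.75 (mean 0.79 ± 0.054, adjusted p = 0.0264) and near 0 on the arrays without zinc. REE1, a protein tied to enolase regulation, was lower at −0.89 on each array (adjusted p = 0.0242). ECM13 lay at 1.36 and 1.11 (mean 1.24 ± 0.18, adjusted p = 0.00687).

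Among IDs without a symbol, YER076C was higher, at 1.61 and 1.43 (mean 1.52 ± 0.13, adjusted p = 0.00507). YOR225W (mean −1.03 ± 0.18, adjusted p = 0.0303) and YCL021W-A (mean −0.88 ± 0.056, adjusted p = 0.0413) were lower, the latter not with a dye term (0.0787). The arrays labelled without zinc gave 1.02 and 1.31 for YER076C and −1.02 and −1.09 for YCL021W-A, so both kept their side of 0.

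**Figure D4:**
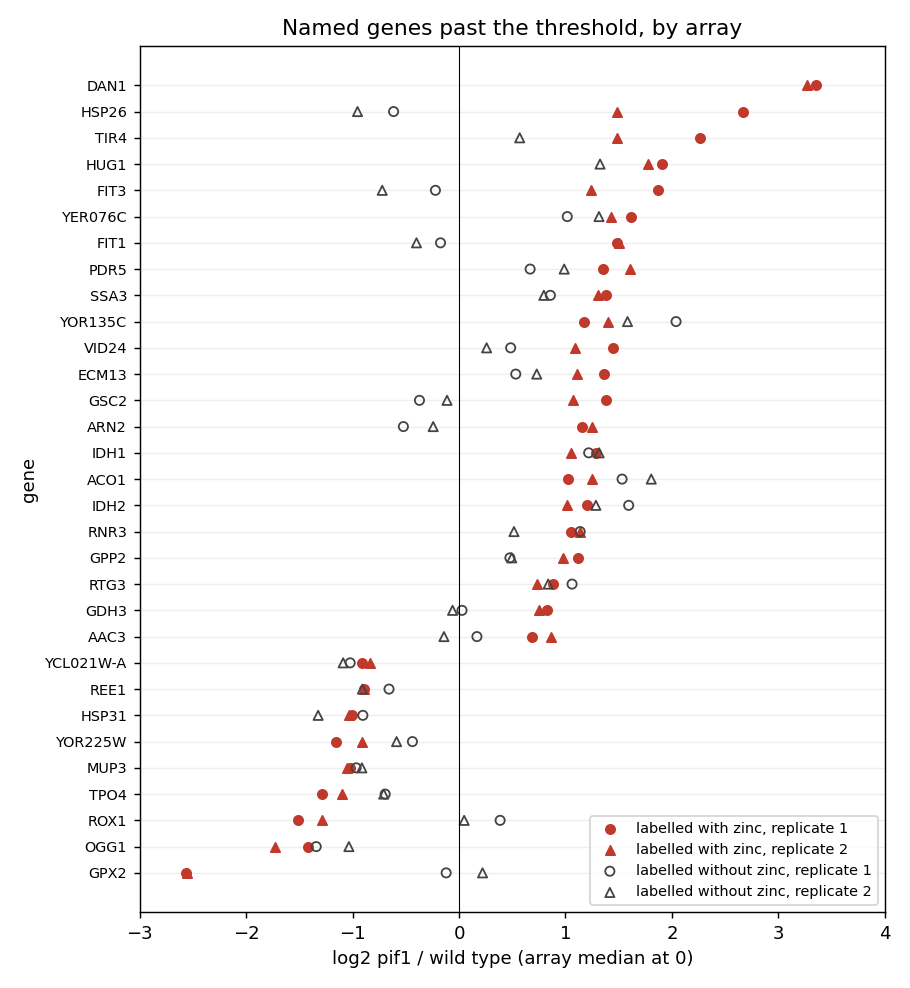
Log2 ratio of pif1 over wild type on each of the 4 mutant arrays for the 31 named genes past the threshold, with filled marks for arrays labelled with zinc, open marks for arrays labelled without zinc, circles for replicate 1 and triangles for replicate 2. The filled and open marks lie on the same side of 0 for most genes, and on opposite sides for HSP26, FIT1, FIT3, ARN2, GSC2 and ROX1.

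The other 24 called genes were all higher, with means between 0.66 and 0.98. By role, they included MMS21 (0.89 ± 0.20), a SUMO ligase of the Smc5/6 complex, SLX8 (0.82 ± 0.066), a subunit of a ubiquitin ligase for SUMO-bearing proteins, and REC104 (0.75 ± 0.18), a meiotic recombination protein. PTR2 (0.85 ± 0.065), a peptide transporter, PIC2 (0.79 ± 0.032), a mitochondrial phosphate and copper carrier, YGP1 (0.93 ± 0.13), a secreted glycoprotein of starved cells, and RPP1 (0.97 ± 0.21), a subunit of RNase P, were also among them, as were MAM33 (0.76 ± 0.088) of the mitochondrial matrix and AME1 (0.79 ± 0.12) of the kinetochore. With a dye term TYW3, TDA10, SWH1, REC104, YCL049C, INM1, DPC29 and NCA3 no longer passed (adjusted p from 0.0529 to 0.0819). The rest were TYW3, TDA10, SWH1, LCL3, GID10, INM1, DPC29, NCA3, SPG1, YCL049C, YHR180W, YGR226C, YHR213W, YER188W and YGL088W. These genes were picked out for mention after their values were seen.

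By position, the medians of the 16 chromosomes lay between −0.05 (chromosome XIII) and 0.08 (chromosome VIII). Among the first 10 annotated genes from each chromosome end, 148 were tested, of which 6 were higher and 2 lower (5.41%), against 1.04% of the other genes with a position and 1.18% of all. The 8 were GDH3, SWH1, RTG3, HSP31, FIT1, YER188W, ARN2 and REE1, of which HSP31 and FIT1 have neighbouring IDs (YDR533C and YDR534C) and opposite signs. With the replicate block 7 of 144 end genes were higher and 2 lower, against 90 and 25 of 4578 genes. With a dye term 5 of 144 were higher and 1 lower, against 40 and 8 of 4578. HSP31 and SWH1 no longer passed with the dye term. No test of these shares was made, and the median of the end genes was −0.01.

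Set beside the arrays labelled without zinc, many calls had the same side. Those are other arrays with other RNAs by label, but whether cultures were shared is not given. Both sets of calls came from 1 fit with a common spread for each gene. Same-numbered arrays of the 2 comparisons correlated at r = 0.46 and 0.524, and their deviations at 0.51, so the overlap is not between independent measurements. On the arrays labelled without zinc 96 of 4722 tested genes passed (2.03%), 68 higher (1.44%) and 28 lower (0.593%). Of the 46 higher genes here, 43 had a mean without zinc, and 37 of these means were above 0. Of the 9 lower genes, 7 were below 0 there. In the 4468 genes tested in both, 52 and 89 passed and 19 passed in each, all with the same sign. With the replicate block, 197 higher and 86 lower genes passed without zinc, and 44 passed in each, 42 of them with the same sign. The 19 are 36.5% of the calls with zinc and 21.3% of those without, and they hold OGG1, ACO1, IDH1, IDH2, RTG3, RNR3, PDR5, SSA3, MUP3, HSP31, REE1 and PTR2. The mean of PTR2 was 1.71 without zinc and 0.85 with it, a difference that did not pass.

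The difference between both mutant comparisons, as labelled, was tested directly. It passed for 6 of 4468 genes (0.134%, limma adjusted p under 0.05), with 221 at an unadjusted p under 0.05 and 16 with the replicate number as a block. There were 3 higher (0.0671%) and 3 lower (0.0671%) differences. HSP26 (2.86, SE 0.36, adjusted p = 0.0231), FIT1 (1.78, SE 0.19, adjusted p = 0.013) and ARN2 (1.59, SE 0.19, adjusted p = 0.0189) had higher ratios on the arrays labelled with zinc. GPX2 (−2.61, SE 0.23, adjusted p = 0.00805), LEU1 (−1.84, SE 0.19, adjusted p = 0.0124) and ROX1 (−1.61, SE 0.20, adjusted p = 0.0231) had lower ones. The block added FIT3, FIT2 and GSC2 (higher) and CCP1, LYS4 and HAP4 (lower), among others. IDH1, IDH2, ACO1, RNR3, OGG1 and PDR5 were in neither set. Of these, ACO1 (difference −0.54) and PDR5 (0.65) had an unadjusted limma p under 0.05 without the block. With the arrays labelled with zinc, replicate 2 left out, 2 genes passed (HSP26 and GPX2), and with any other mutant array left out 0 passed.

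The same difference can be read from the 4 zinc arrays as the zinc response of pif1 minus that of the wild type, which gave opposite signs for all 6 genes. HSP26 lay at −3.32, FIT1 at −2.02 and ARN2 at −1.91, while GPX2 lay at 2.74, LEU1 at 1.38 and ROX1 at 1.07. On those arrays zinc raised HSP26 by 6.64 in the wild type and 3.31 in pif1, and GPX2 by 2.61 in pif1 with −0.14 in the wild type. The direction of these 6 differences therefore depends on which arrays are read, and it would turn if the zinc labels of the mutant arrays were exchanged. Exchanging the strain labels of the zinc arrays would leave these 6 differences as they are and turn the estimates from the zinc arrays.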

How the data were processed

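The values analysed were log2 ratios deposited by the authors as 1 table with a column for each array. The authors removed small spots (diameter under 120 um) and dim ones (both dyes under 100 units), per the labels, and made cDNA by oligo(dT) priming of 8 ug RNA. Scanner software, background correction, normalization, centring and log base are not given in the sources used here, so base 2 is an assumption and the direction (first-named over second-named RNA) rests on the titles and on PIF1, which is no independent check. The deposited medians of both arrays were −0.027. Over all arrays the lowest correlation was r = −0.365 (zinc in the wild type, replicate 1, with the mutant without zinc, replicate 2); the direction was kept, since the labels state the dyes.

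Values beyond 16 in size (2, both PIF1) were set to missing, and every array's median was subtracted. The test was limma 3.58.1 in R 4.3.3 (lmFit, eBayes), with 1 coefficient per comparison over all 8 arrays and Benjamini-Hochberg adjustment over all genes tested. Where arrays lacked a value, a gene's own spread came from fewer of them. The fit was also run on simulated data with independent noise on each array. It therefore does not bear on the pairing of same-numbered arrays described below. Symbols came from NCBI's yeast gene table by locus tag (5662 of 6212 IDs matched). SDs are those of 2 arrays, whose number limits the precision.

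Deviations of same-numbered arrays from their comparison's mean correlated between 0.393 and 0.51 in all 6 pairs of comparisons, so the numbers were taken to pair the arrays. The members and the 53 gene lists were chosen with earlier results of these data known. Named genes were PIF1 and its 5 neighbours on each side, the 12 highest and lowest calls, up to 4 calls of each list, up to 4 members by size of the zinc transport, iron, siderophore, TCA, iron-sulfur and oxidative stress lists, and the largest called differences. Promoter motifs and sequences were not analysed here. Alternatives covered centring, scaling, quantile normalization, a dye term, the replicate block, the arrays fitted, moderation, thresholds and leaving out each array.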

Additional observations from a re-analysis of the deposited data

Results flagged for a closer look

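For 6 genes the ratio of pif1 over wild type differed between the arrays labelled with zinc and those labelled without it, by a limma contrast over both (adjusted p under 0.05, 2 arrays on each side). The ratio labelled with zinc was higher by 2.86 for HSP26, by 1.78 for FIT1 and by 1.59 for ARN2. The difference was −2.61 for GPX2, −1.84 for LEU1 and −1.61 for ROX1. In each of the 6, both arrays labelled with zinc lay on the same side of both arrays labelled without it. The zinc arrays gave the opposite sign for every one of them, and which label, if any, is exchanged was not tested beyond the loop and the presence of values described above.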

How the results depend on the processing

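The count of 55 became 26 with a fold minimum of 2, 13 at an adjusted p under 0.01, 371 (282 higher, 89 lower) with arrays scaled to one spread, 317 with quantile normalization, 115 with the replicate block, 267 (209 and 58) from its own 2 arrays and 107 (88 and 19) from the 4 mutant arrays. Leaving out either array gave 1 to 3 calls, with the lone array assumed to vary like the other groups: GPX2 passed each time (adjusted p = 0.0239 and 0.0109), HSP26 (0.0109) and PUT1 (2.41 on replicate 1 alone, 0.0331) without replicate 2. It stayed within 1.5-fold without centring (51), with a dye term (48, with 42 of the 55 kept), over genes on all arrays (57) and with robust moderation (59). The dye term ended the calls of AAC3, HSP31 and YCL021W-A among named genes. The replicate block ended no call it could test and added 5 named genes (FIT2, FRE5, ISU1, SOD1 and TRR1), and scaling, quantile normalization, the own 2 arrays and the 4 mutant arrays added 9, 8, 8 and 4. No named gene that passed changed sign under any of these.

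The 6 differences became 36 with scaling, 33 with quantile normalization, 16 with the replicate block, 15 from the 4 mutant arrays and 11 (3 higher, 8 lower) from the 4 zinc arrays, an alternative chosen after seeing the data, and 0 to 2 with 1 array left out. The 19 departures from the loop became 0 with the zinc labels of both mutant comparisons exchanged, 67 with the replicate block, and 5 to 75 with 1 array left out, 75 and 46 of them without replicate 1 and 2 of zinc in pif1. With the labels exchanged, the block gave 1. Without the IDs YMR176W to YMR250W, also an alternative chosen after seeing the data, the 19 became 16. RKR1 and DFG5, both within those IDs, were among the 11 differences from the 4 zinc arrays. Of 50 gene lists with at least 4 tested members, 21 had a median above 0, and 20 to 28 did under the alternatives. The pair for zinc in pif1, which had the largest within-pair SD (0.431), was absent from the fits on the own 2 arrays and on the 4 mutant arrays. Why these counts moved was not tested. With 2 arrays in each comparison, smaller differences were not detectable, and dim spots were missing before deposit.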
